A study of Mus musculus with 4 samples.

Results

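The genes of mouse chromosome 12 were followed in gene order through control and Mbd4 KO cells of the CH12.F3 line, a mouse B lymphoma line used to study class switching, the change of antibody isotype from IgM to IgA. Members were the transcript clusters of a whole-transcript array that carry exactly 1 gene symbol and whose gene lies on chromosome 12 in the RefSeq annotation of GRCm38, without immunoglobulin heavy chain symbols. There were 708 such clusters of 35556 on the array, belonging to 650 of 19920 genes with 1 symbol, and 6 heavy chain clusters were set aside. A transcript cluster is the set of probes that the array's design assigns to 1 transcript unit. The chromosome was chosen because its genes had been seen to be slightly lower in Mbd4 KO cells on these same arrays, so its shift is described here without a test. The per-gene adjusted p-values come from the same contrast, fitted over all clusters with 1 symbol, and describe single genes only.

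Of the 4 arrays, 2 measured control cells and 2 measured cells labelled Mbd4 KO. Both kinds of cell were kept in medium containing 6% fetal calf serum and received 3 inducers of IgA switching over 24 hours. These were CD40L at 25% of the volume, TGFb at 0.2 ng/ml and IL4 at 5 ng/ml. The series' design text calls the samples of a group independent, and nothing in the labels tells whether cultures or clones were separate, or how Mbd4 was deleted. The p-values therefore set the difference between groups only against the spread among arrays of a group, which may be technical. An effect of lost Mbd4 cannot be told apart from any other way in which these cells differ. Mbd4 itself read 8.74 and 8.77 (log2) on the control arrays but 6.47 and 6.49 on the others, the order the labels give. All 7 measured B cell markers (Cd79a, Cd79b, Ms4a1, Cd22, Pax5, Ebf1 and Ighm) lay above the median gene, and all 4 T cell markers (Cd3e, Cd3g, Cd8a and Cd4) below it, in these cells. Of 4 myeloid markers, Csf1r and Adgre1 lay above it, as did the epithelial marker Krt8 and the fibroblast marker Col1a1. Adgre1 did so only through its control arrays (7.69 and 7.68), while its Mbd4 KO arrays (6.58 and 6.67) lay below it. The log2 values of the 4 myeloid markers summed to 26.80 and 26.75 in control arrays and 25.80 and 26.17 in Mbd4 KO arrays. The markers did not move together: Adgre1 was lower by 1.06 (limma adjusted p = 0.0031) and Csf1r differed by -0.07. Lyz2 and Itgam were higher, by 0.24 and 0.10, and the lower sum came from Adgre1. The part of this in the results for chromosome 12 was not tested.

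Mbd4 is a DNA glycosylase with a methyl-CpG binding domain, which removes thymine or uracil mispaired with guanine. Deamination of 5-methylcytosine leaves such a thymine, so the enzyme is known as a guard of methylated CpG sites. Chromosome 12 carries near its far end the immunoglobulin heavy chain locus, where the deaminase AID acts during class switching, and also the imprinted Dlk1-Dio3 domain, the clade A serpin cluster and a cluster of acyl-CoA thioesterases. Its other genes include those of Akt1, Nfkbia, Hsp90aa1, Batf and Dnmt3a.

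Promoters are shown of 2 chromosome 12 genes that rose, Slc24a4 and Dock4, and of 2 that fell, Asb2 and Pik3cg. Slc24a4 and Dock4 had the largest rises among well-measured genes. Dock4 reached the level for such genes, given further on, only through its Mbd4 KO arrays. Evl fell more than Pik3cg but is not shown, so the 4 windows do not stand for all rises and falls. Promoters are shown because CpG sites are what Mbd4 binds when they are methylated. Methylation was not measured here. Each is 300 bases of GRCm38.p6 from RefSeq, from 250 before to 50 after the annotated start, 5′ to 3′ on the gene's strand, with every CpG in capitals.
Slc24a4 (chr12:102128477-102128776, plus strand): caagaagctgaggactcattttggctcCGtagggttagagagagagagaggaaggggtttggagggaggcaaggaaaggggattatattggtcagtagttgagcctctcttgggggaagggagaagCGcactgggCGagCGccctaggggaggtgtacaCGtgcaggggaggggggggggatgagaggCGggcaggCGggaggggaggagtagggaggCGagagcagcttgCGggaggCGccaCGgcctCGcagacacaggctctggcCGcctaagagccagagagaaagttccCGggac
Dock4 (chr12:40445803-40446102, plus strand): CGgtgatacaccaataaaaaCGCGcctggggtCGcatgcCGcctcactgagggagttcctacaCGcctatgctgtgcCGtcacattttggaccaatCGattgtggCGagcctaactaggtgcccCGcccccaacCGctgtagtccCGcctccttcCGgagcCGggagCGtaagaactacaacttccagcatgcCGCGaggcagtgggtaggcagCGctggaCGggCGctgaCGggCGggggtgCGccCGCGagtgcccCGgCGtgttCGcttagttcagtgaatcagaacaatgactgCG
Asb2 (chr12:103355952-103356251, minus strand): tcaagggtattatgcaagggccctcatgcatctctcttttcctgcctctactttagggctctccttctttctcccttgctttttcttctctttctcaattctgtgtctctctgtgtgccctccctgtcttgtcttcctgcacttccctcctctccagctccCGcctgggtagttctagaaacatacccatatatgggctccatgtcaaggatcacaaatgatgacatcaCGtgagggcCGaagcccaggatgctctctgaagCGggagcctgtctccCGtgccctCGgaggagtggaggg
Pik3cg (chr12:32208610-32208909, minus strand): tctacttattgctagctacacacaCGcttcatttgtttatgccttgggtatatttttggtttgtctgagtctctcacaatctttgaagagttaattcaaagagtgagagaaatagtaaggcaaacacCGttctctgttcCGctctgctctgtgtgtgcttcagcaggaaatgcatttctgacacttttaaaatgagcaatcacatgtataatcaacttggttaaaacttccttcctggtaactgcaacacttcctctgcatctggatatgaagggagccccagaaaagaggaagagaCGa
The 4 windows hold 14, 29, 6 and 4 CpG sites in this order. The median was 7.0 over the first listed promoters of 27025 genes and 24.0 over the 309 well-measured chromosome 12 genes with a listed promoter. The first value takes in genes that are not well measured, so the medians do not set chromosome 12 against other chromosomes. Counts of 0 to 4, 5 to 14, 15 to 24 and 25 or more sites were held by 16, 59, 93 and 141 well-measured chromosome 12 genes. Elsewhere they were held by 492, 1506, 2703 and 3034. For Asb2 and Pik3cg the first of 2 listed promoters is shown. Of the other genes past the threshold given further on, Eml5, which rose, has 25 sites, and Evl, Klhdc2 and Dhrs7, which fell, have 26, 20 and 22, so counts above 20 occurred in both directions. The GC box GGGCGG, which itself holds a CpG, was found on either strand in the Dock4 window and in 35.9% of all first promoters. The box CCAAT, on either strand, was found in the Slc24a4 and Dock4 windows and in 37.9% of all. TATAAA was found in none of the 4 and in 14.2% of all.

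Most well-measured genes of chromosome 12 were slightly lower in Mbd4 KO cells. A gene was called well measured when its mean over the 4 arrays was at or above the median of all genes (7.15, log2), and 351 of the 650 genes were, while 299 were not. The median difference of Mbd4 KO minus control over these 351 was -0.062 (log2), against 0.019 over the well-measured genes of the other chromosomes. Of the 351 genes, 240 (68.4%) lay below 0, where 44.3% of all well-measured genes did. In bulk RNA, fewer cells with a transcript and less of it per cell cannot be told apart. The whole distribution was displaced rather than its tail alone: the quartiles were -0.14 and 0.03 on chromosome 12 and -0.06 and 0.09 elsewhere. Differences between -0.3 and -0.1 were held by 105 genes, 29.9% of the chromosome against 13.6% elsewhere, while 20 genes, 5.70% against 4.24%, lay below -0.3. The shares elsewhere include chromosome 16, with a median of -0.28, and the low first part of chromosome 8, both described below. How many of the genes below -0.3 lie there was not counted.

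In 143 genes (40.7%) both Mbd4 KO arrays lay below both control arrays, and in 51 (14.5%) both lay above, the groups overlapping in the other 157. Over all well-measured genes 23.6% were lower and 30.7% higher in this sense. The contrast is the one the chromosome was chosen on, and nothing is read from these shares.

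**Figure D1:**
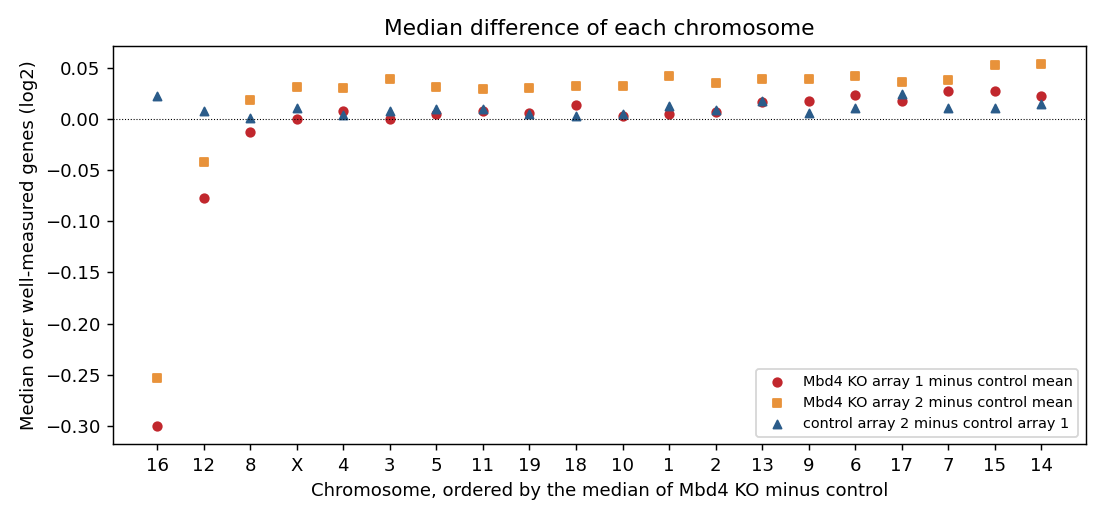
Median over well-measured genes (log2) for each of 20 chromosomes, shown for each Mbd4 KO array against the mean of the control arrays and for control array 2 minus control array 1. Chromosomes 16 and 12 are the only ones with the Mbd4 KO arrays both below 0, at -0.30 and -0.25 and at -0.078 and -0.042.

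Ordered by this median, chromosome 12 came second of 20 chromosomes, after chromosome 16 (-0.28, with 92.1% of 316 genes below 0) and before chromosome 8 (0.0039, with 48.6% of 549). The chromosomes other than 16 and 12 had medians from 0.0039 to 0.043. A median over a chromosome can hide a regional difference: the first 3 bins of 30 genes on chromosome 8 stood at -0.30, -0.26 and -0.32, each further below 0 than any bin of chromosome 12. The shift of chromosome 12 was thus several times smaller than that of chromosome 16 and was shared by a smaller part of its genes.

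Both Mbd4 KO arrays showed the shift. Against the mean of the control arrays, the median of the 351 genes was -0.078 in Mbd4 KO array 1 and -0.042 in array 2, with 236 and 234 genes below 0. The well-measured genes of other chromosomes had medians of 0.006 and 0.031 in these arrays. The gap between chromosome 12 and the rest was therefore -0.084 in array 1 and -0.073 in array 2, and the arrays differed by little once each was set against its own other chromosomes. Within groups, the median of the same genes was 0.0075 for control array 2 minus control array 1 and 0.029 for Mbd4 KO array 2 minus array 1, and that of the other chromosomes was 0.0096 and 0.03. Each of the 4 pairs of single arrays gave a negative median, from -0.073 for Mbd4 KO array 1 minus control array 2 to -0.042 for Mbd4 KO array 2 minus control array 2.

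Pairs that share no array were compared gene by gene. With arrays of the same number paired, 170 of the 351 genes (48.4%) were below 0 in both pairs and 71 above 0 in both, beside 2823 (29.4%) below and 3825 above on the other chromosomes. With the numbers crossed, 178 (50.7%) were below and 63 above, beside 2585 (26.9%) and 3557. Across the 351 genes, which are not independent replicates and share 1 normalization, Pearson's r between the pairs was 0.67 and 0.63. Over other chromosomes it was 0.74 and 0.67.

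To ask whether the shift was even along the chromosome, the 351 genes were cut in gene order into 12 consecutive bins of 30 genes, the last holding 21. The median difference was below 0 in all 12 bins, as it was in 72 of 320 such bins (22.5%) of the other chromosomes. It ran from -0.13 in the sixth bin, from Tmem30b to Erh, to -0.02 in the last, from Pld4 to Tmem196. With all 650 genes in place of the 351, 14 of 22 bins lay below 0. In Mbd4 KO array 2 all 12 bins lay below 0, and in array 1 the 11 bins before the last did, the last standing at 0.015. After the median of the other chromosomes on each array was taken off, a setting chosen after seeing the data, array 1 still had 11 bins below 0 and array 2 had 12.

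The lowest medians were those of the fourth, the fifth and the sixth bin, while the seventh stood nearer 0. The fourth bin, from Heatr5a to Fancm, and the fifth, from Rps29 to Slc38a6, stood at -0.09 each, and the seventh, from Slc39a9 to Arel1, at -0.036. The sixth, named because it was lowest, had 23 of its 30 genes below 0 and 18 with both Mbd4 KO arrays below both control arrays. These shares were 44.3% and 23.6% over all well-measured genes and 68.4% and 40.7% over those of chromosome 12. The sixth bin was at -0.14 in Mbd4 KO array 1 and -0.13 in array 2, the lowest of the 12 in each. By contrast, the fifth bin was at -0.11 in array 1 and -0.03 in array 2, so its depth differed between the arrays. The standard deviation over the 12 bin medians was 0.031. The differences between arrays of the same group, taken over the same bins, give 0.017 as the standard deviation that replicate spread alone would leave in a difference of group means. That value leaves out the spread that comes from which genes fall in a bin, so it cannot show whether the shift was uneven. Over bins of the other chromosomes without 16, the low ones of chromosome 8 included, the standard deviation was 0.042. Within groups, bin medians ran from -0.04 to 0.03 between the control arrays and from -0.02 to 0.07 between the Mbd4 KO arrays. The order of the bins repeated only in part: over the 12 bins, r between pairs that share no array was 0.40 with equal numbers and 0.35 with crossed ones, and 10 and 9 bins were below 0 in both pairs.

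**Figure D2:**
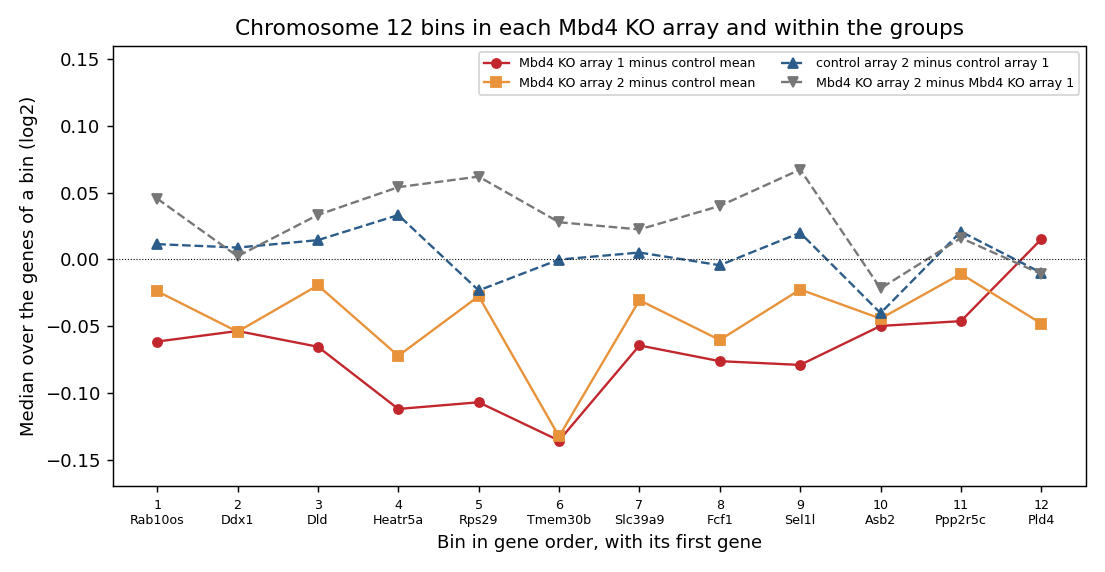
Median over the genes of each of 12 consecutive bins of chromosome 12 (log2, vertical axis), in gene order and with the first gene of each bin named. Circles and squares are the Mbd4 KO arrays against the control mean, and triangles are differences within a group. The Mbd4 KO arrays meet at -0.14 and -0.13 in the sixth bin and part in the last, at 0.02 and -0.05.

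The sixth bin shows what a low stretch is made of. Zbtb1, a BTB zinc-finger regulator needed for lymphocyte development, differed by -0.48 ± 0.086 (log2, SE; limma adjusted p = 0.0768). Zbtb25, whose annotated span overlaps it, differed by -0.24. Rdh12, a retinol dehydrogenase gene, stood at -0.35, the actin cross-linker gene Actn1 at -0.33, and Atp6v1d, of the vacuolar proton pump, at -0.21. The phosphatase 2A regulator gene Ppp2r5e stood at -0.18, and Hif1a, the oxygen-regulated transcription factor gene, at -0.07. None of these passed limma's threshold. Within the same stretch Max, the partner of MYC, was at 0.01, and the fucosyltransferase gene Fut8 at 0.12 with both Mbd4 KO arrays above both control arrays. Zbtb25, Rdh12, Actn1 and Fut8 were picked after their values were seen.

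With dimmer genes left out, the longest unbroken run of well-measured genes below 0 had 16 members, from Adam17 to Cbll1, with a median of -0.08. The longest such run above 0 had 5, from Nbas to Pqlc3, with a median of 0.17. Dimmer genes lying within these runs did not all follow them: Rnf144a, in the first, was at 0.19 and Greb1, in the second, at -0.15.

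**Figure D3:**
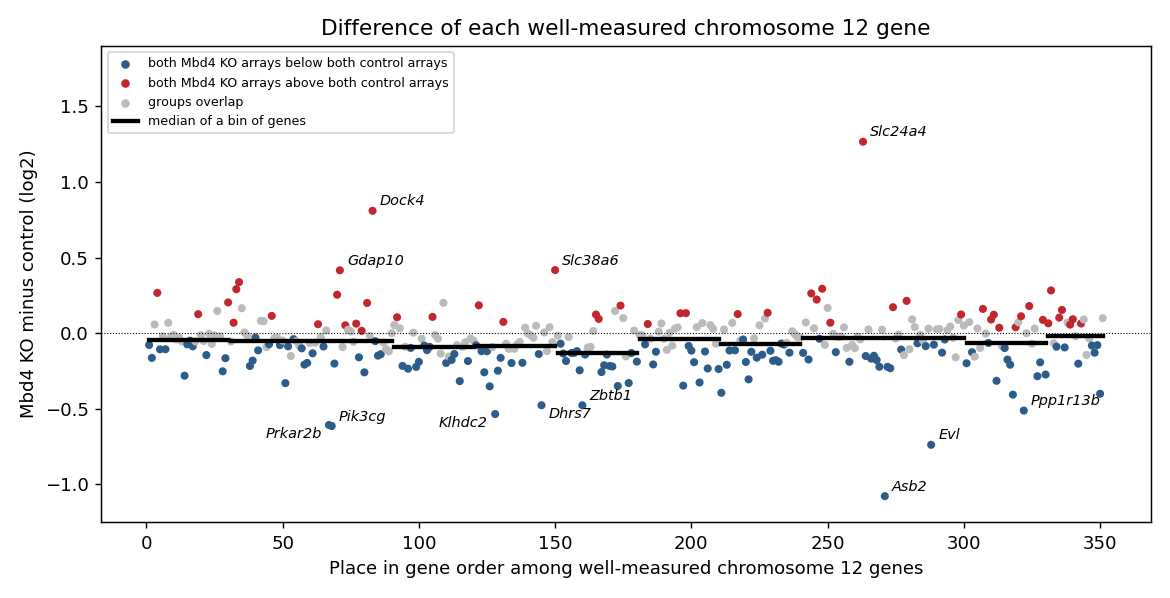
Difference of Mbd4 KO minus control (log2) for each of the 351 well-measured genes of chromosome 12 in gene order, coloured by whether the arrays of the groups overlap. Black lines are the medians of the 12 bins, all below 0, from -0.13 to -0.02, while Slc24a4 stands at 1.27 and Asb2 at -1.08.

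The shift was larger in the brighter genes. In the highest quartile of level over all genes, the 176 chromosome 12 genes had a median difference of -0.07 and 76.7% lay below 0, against 0.01 and 44.8% for genes elsewhere. In the third quartile the 175 genes had -0.03 and 60.0%, against 0.03 and 42.0%. Under the median level no such gap was seen: the 299 dimmer genes had a median of 0.029, as did dimmer genes elsewhere. Over all 650 genes the median was -0.017. The deposited values give no background per cluster, and the part of dim signal in this pattern was not tested. In the highest quartile the median was -0.09 in Mbd4 KO array 1 and -0.055 in array 2. In the second quartile the arrays parted, at 0.061 and -0.0025.

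**Figure D4:**
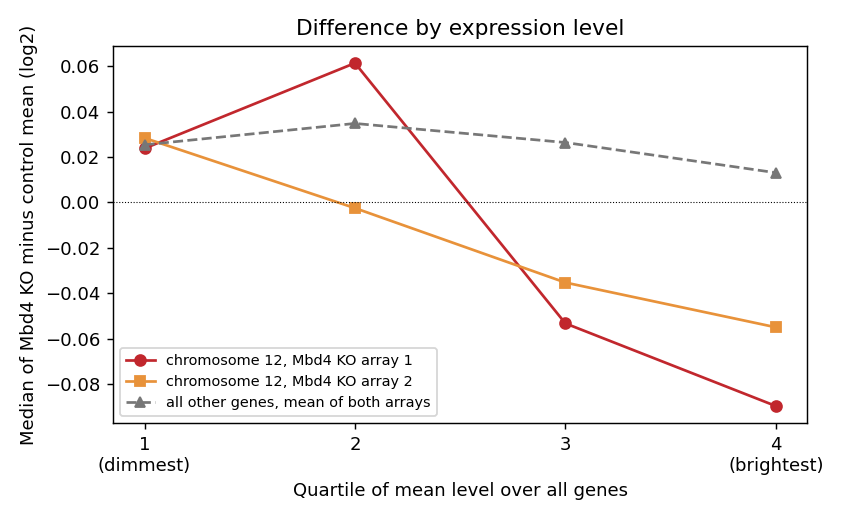
Median of Mbd4 KO minus the control mean (log2) by quartile of mean expression level over all genes, for chromosome 12 in each Mbd4 KO array and for all other genes. From the dimmest to the brightest quartile, array 1 goes from 0.02 to -0.09 and array 2 from 0.03 to -0.055, while other genes stay between 0.01 and 0.03.

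By kind of transcript, 558 of the 650 genes were protein coding, and 321 of them lay below 0 (median -0.03). The 47 microRNA genes, most of them in the Dlk1-Dio3 domain and with a median level of 4.68, had a median of 0.04 with 14 below 0, and the 31 long noncoding RNA genes had 0.04 with 13 below 0. Sorted by promoter, the well-measured genes with 25 or more CpG sites had a median of -0.07 (141 genes), those with 15 to 24 also -0.07 (93 genes), those with 5 to 14 had -0.01 (59 genes), and those with 0 to 4 had -0.07 (16 genes). Elsewhere the same classes had medians from 0.01 to 0.02.

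Against this background 8 of the 708 clusters (1.13%) passed limma's Benjamini-Hochberg adjusted p of 0.05, where 1.39% of all clusters with 1 symbol did. Of these, 3 were higher and 5 lower in Mbd4 KO cells, where 0.431% of all clusters were called higher and 0.955% lower, and quantile normalization left 3 higher and 3 lower. The contrast is again the one the chromosome was chosen on, and nothing is read from these shares. Letting the prior variance follow intensity gave 44 calls on the chromosome (6.21%), 8 higher and 36 lower, beside 5.14% of all clusters called and 3.32% called lower. Leaving out the dimmest 30% of clusters gave 18 (all clusters 4.2%), and an adjusted p of 0.1 gave 17 (all clusters 2.72%). Without Mbd4 KO array 1 there were 3 calls, and there were 2 when any other array was dropped. Slc24a4 and Asb2 were the 2 that kept their calls whichever array was left out.

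**Figure D5:**
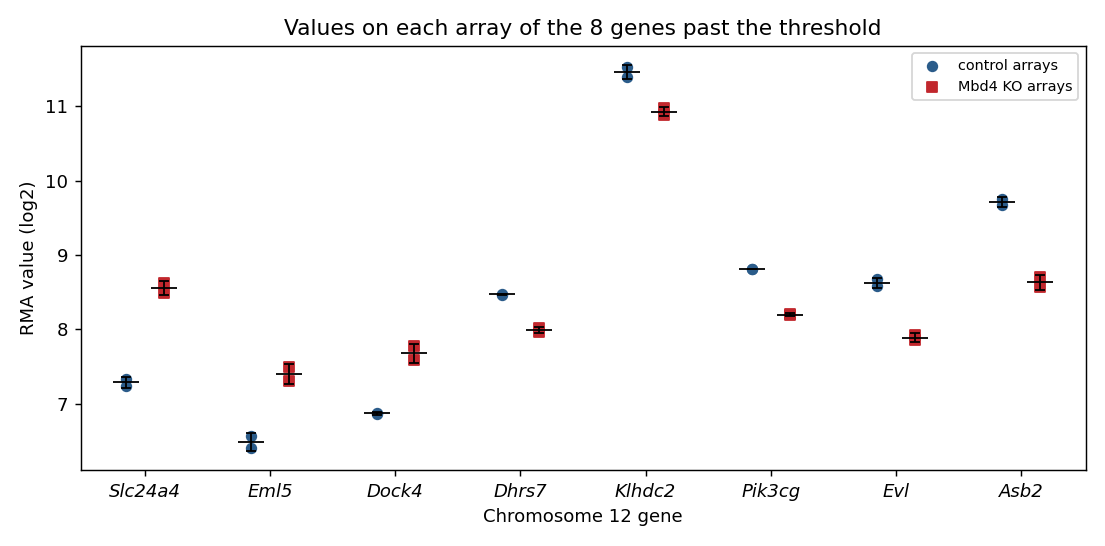
RMA values (log2, vertical axis) on each array of the 8 chromosome 12 genes past limma's threshold, as points, with the mean and SD of each group as bars (n = 2 each). The groups do not overlap in any of the 8, and the widest gap is that of Slc24a4, from 7.34 and 7.24 to 8.49 and 8.62.

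Slc24a4, which encodes a potassium-dependent sodium/calcium exchanger, went against the chromosome most. It read 7.34 and 7.24 on the control arrays, then 8.49 and 8.62 with Mbd4 KO, and the groups lay far apart. It rose by 1.27 ± 0.080 (log2, SE), 2.41-fold, with a limma adjusted p of 0.0029, which stayed between 0.0184 and 0.0271 with 1 array left out. The 3 measured genes on each side of it stayed near 0 or below: Trip11 (-0.10), Atxn3 (-0.02) and Cpsf2 (-0.04) before it, and Rin3 (-0.15), Lgmn (0.02) and Golga5 (-0.17) after it. Of these, Rin3, a RAB5 guanine nucleotide exchange factor gene, and the golgin gene Golga5 had both Mbd4 KO arrays below both control arrays, and none of the 6 passed limma. None of the 6 had a difference near that of Slc24a4. Slc8a3, a sodium/calcium exchanger gene elsewhere on the chromosome, was dim and differed by -0.01.

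Among genes with a difference above 0, those nearest to Slc24a4 were Eml5, Dock4 and Slc38a6, over the same 4 arrays. Eml5, of the EMAP family of microtubule-associated proteins, had 6.40 and 6.57 in control arrays and 7.30 and 7.50 in Mbd4 KO arrays. It rose by 0.91 ± 0.099 (limma adjusted p = 0.0167), and its mean fell under the level used for well-measured genes. Its second, dimmer cluster differed by 0.24 and did not pass. Dock4, an exchange factor gene for small GTPases, had 6.86 and 6.88 against 7.59 and 7.77 and rose by 0.81 ± 0.083 (limma adjusted p = 0.0144). Its control arrays lay under the level used for well-measured genes, which its mean reached only through the Mbd4 KO arrays. The amino acid transporter family gene Slc38a6, at 8.65 and 8.71 against 9.01 and 9.19, differed by 0.42 ± 0.085 (limma adjusted p = 0.0991). Both Mbd4 KO arrays were above both control arrays in each of these genes. Eml5 no longer passed limma after any 1 array was dropped (adjusted p from 0.0655 to 0.106), and Dock4 with any but Mbd4 KO array 1 left out (0.0485 without it, up to 0.0994 without another).

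Eml5 lies in a stretch with several higher genes, which was singled out after its values were seen. Between Gpr65 (-0.17) and Foxn3 (-0.08) lie 6 measured genes: Kcnk10 (0.26), Spata7 (0.03), Ptpn21 (0.22), Zc3h14 (-0.04), Eml5 (0.91) and Ttc8 (0.29). Kcnk10 encodes a potassium channel, Ptpn21 a protein tyrosine phosphatase and Ttc8 a subunit of the BBSome of cilia. In 4 of the 6 both Mbd4 KO arrays lay above both control arrays, as in 27.0% of all genes, and Eml5 alone passed. Since the stretch was picked on these values, nothing is read from the count. In Zc3h14, whose annotated span overlaps that of Eml5, the arrays lay the other way. The probe positions of either gene are not known here.

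Other differences above 0 came in neighbouring genes too. Trib2, a tribbles pseudokinase gene (0.29 ± 0.079), and Lpin1, the phosphatidate phosphatase lipin 1 gene (0.34 ± 0.11), stand next to each other among measured genes, with limma adjusted p of 0.193 and 0.251. Nampt, the rate-limiting enzyme of NAD salvage, had 11.89 on both control arrays and 12.13 and 12.16 in Mbd4 KO arrays, a difference of 0.25 (adjusted p = 0.171). Gdap10, annotated across the same span as Nampt, differed by 0.42 (adjusted p = 0.0783), and which of them each probe reads is not known here. Ahnak2 differed by 0.28 (adjusted p = 0.184). None of these passed limma's threshold.

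Asb2, the substrate receptor of a cullin-5 ubiquitin ligase, fell most. It had 9.67 and 9.76 in control arrays and 8.56 and 8.70 in Mbd4 KO arrays. It fell by 1.08 (log2, SE 0.081), 2.11-fold, with a limma adjusted p of 0.005, which lay from 0.0304 to 0.0464 with 1 array left out. It opens the tenth bin and Slc24a4 lies in the ninth, so the largest rise and the largest fall of the chromosome were in adjoining bins.

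Evl, an Ena/VASP regulator of actin filaments, had 8.58 and 8.68 against 7.93 and 7.85 and fell by 0.74 (SE 0.074; limma adjusted p = 0.0133). Pik3cg, the catalytic subunit p110 gamma gene of the phosphoinositide 3-kinase that answers to G-protein coupled receptors, had 8.81 on both control arrays and 8.19 and 8.21 in Mbd4 KO arrays. It fell by 0.61 (SE 0.065; adjusted p = 0.0155). Its neighbour Prkar2b, a regulatory subunit gene of protein kinase A, differed by -0.61 ± 0.098 and did not pass (adjusted p = 0.0543). Klhdc2, a substrate receptor gene of a cullin-2 ubiquitin ligase, had 11.40 and 11.52 against 10.97 and 10.88 and fell by 0.53 (SE 0.079; adjusted p = 0.0449). Dhrs7, a short-chain dehydrogenase gene, had 8.47 on both control arrays and 8.03 and 7.96 in Mbd4 KO arrays and fell by 0.48 (SE 0.067; adjusted p = 0.0415). In all 5 genes that fell the Mbd4 KO arrays lay below the control arrays. Evl, Pik3cg, Klhdc2 and Dhrs7 each lost their call with any 1 array left out, with adjusted p from 0.0669 for Evl to 0.225 for Klhdc2. Klhdc2 and Dhrs7 also lost it with quantile normalization (0.0567 and 0.0505). Ppp1r13b, which encodes the p53 cofactor ASPP1, differed by -0.51 and did not pass (adjusted p = 0.0972).

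The lists of chromosome 12 genes below were drawn up with earlier results of these data known. Beside their counts stand the shares over all genes: 42.0% below 0, 18.1% with both Mbd4 KO arrays below both control arrays and 27.0% with both above. Over the 351 well-measured chromosome 12 genes these shares were 68.4%, 40.7% and 14.5%. Most lists hold mainly such genes, and nothing about a list is read from its counts. Slc24a4 was the 1 call over all of them. Of 9 measured genes of the proteasome, chaperones and translation, 8 lay below 0 (median -0.11), 7 of them with both Mbd4 KO arrays under both control arrays. Psma3, a proteasome subunit gene, differed by -0.20 (limma adjusted p = 0.307), Wars, a tryptophan tRNA ligase gene, by -0.13 and Hsp90aa1, the HSP90 alpha chaperone gene, by -0.13. These are bright genes, with a median level of 11.65, and the translation factor gene Eif5 was the 1 above 0 (0.04).

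Of 15 transcription regulators, 12 lay below 0 (median -0.07). After Zbtb1 came the Sp family gene Sp4 (-0.40, limma adjusted p = 0.201), the AP-1 partner gene Jdp2 (-0.30), and, with smaller values, Ahr (-0.16), Id2 (-0.15) and Batf (-0.12), an AP-1 factor that class switching needs. In Id2 the groups overlapped: Mbd4 KO array 1 read 9.98, above both control arrays (9.89 and 9.96), and array 2 read 9.57. Bcl11b, a T lineage regulator that is dim here, was at 0.31 (adjusted p = 0.168) with the groups apart. Of 6 genes of NF-kappaB and TNF receptor signalling, 5 lay below 0 (median -0.18). Tnfaip2 was at -0.31 (adjusted p = 0.247), the apoptosis gene Siva1 at -0.28 and the kinase gene Map4k5 at -0.20, while Nfkbia, the NF-kappaB inhibitor gene, was at -0.09. None of the members of either list passed limma.

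Of 11 genes of replication, repair and methylation, 6 lay below 0 and the median was -0.01, or 0.00 with quantile normalization. Pole2, a subunit gene of DNA polymerase epsilon, had 11.19 and 11.26 in control arrays and 10.93 and 10.82 in Mbd4 KO arrays, a difference of -0.35 (limma adjusted p = 0.109). Rrm2, the ribonucleotide reductase M2 gene, had 12.13 and 12.15 against 11.81 on both, a difference of -0.33 (adjusted p = 0.0954). Mlh3, a mismatch repair gene, differed by 0.13 and Dnmt3a, a de novo DNA methyltransferase gene, by -0.11, and neither passed. Of 11 growth signalling genes, 8 lay below 0 (median -0.06), led by the phosphatase 2A regulator gene Ppp2r5c (-0.20), Akt1 (-0.19) and Ppp2r5e (-0.18). Of 8 mitochondrial and metabolic genes, 5 lay below 0 (median -0.07), among them Gstz1 (-0.18) and Odc1, which makes putrescine (-0.18). Of 8 genes of G-protein coupled receptors and calcium signalling, 5 lay below 0 (median -0.02), the proton-sensing receptor gene Gpr65 at -0.17.

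The serpin and thioesterase clusters and the Dlk1-Dio3 domain consist mostly of dim genes here. Of 14 clade A serpin genes, all under the median level, 5 lay below 0 (median 0.02), with Serpina6 at -0.39 (limma adjusted p = 0.0987), Serpina1c at -0.30 and Serpina11 at -0.29. In Serpina1c the Mbd4 KO arrays stood apart from each other, at 5.08 and 3.87. Of 7 genes listed for the Dlk1-Dio3 domain, its microRNA genes not among them, 6 were measured. Their median was 0.01, which turned to -0.01 with quantile and -0.02 with cyclic loess normalization, with Rian at 0.23, Rtl1 at 0.10 and Meg3 at -0.08. Of 6 acyl-CoA thioesterase genes 4 lay below 0 (median -0.06), with Acot3 at -0.26, Acot4 at -0.18 and the 1 well-measured member, Acot2, at 0.13. Of 5 interferon-induced genes 3 lay below 0 (median -0.01), with Ifi27l2a at 0.17, Cmpk2 at -0.09 and Rsad2 at 0.05. No member of these 4 lists passed limma.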

How the data were processed

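Values came from 4 arrays, 2 of control and 2 of Mbd4 KO cells. Per the submitters' processing notes, the authors made the deposited log2 values with RMA, which corrects background, normalizes by quantiles and summarises probes per transcript cluster. No version of it, and no genome build of the array, is named in the sources used here. That the scale is log2 was judged from the range of values. RNA was extracted with Trizol and cleaned on a column, and the labels call it both total and polyA. Quantile normalization sets chromosomes against each other but can hide a shift common to all genes.

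The platform's gene table gave 1 symbol to 21789 clusters, several to 1621 and none to 12146. RefSeq GRCm38.p6 placed 21698 of the 21789 by gene ID and 91 by symbol or synonym. Each gene took its cluster with the highest mean. Mbd4 KO was set against control in R 4.3.3 by limma 3.58.1 (lmFit, then eBayes), two-sided, with Benjamini-Hochberg adjustment over the 21789 clusters. Standard errors are moderated, with 2 residual and 4 prior degrees of freedom. The number of arrays limits the precision, and for 1 gene the smallest p of an exact permutation test would be 0.333. In a simulation with 21789 clusters and 2 arrays per group, limma recovered 18% of log2 changes of 0.5 and 96% of changes of 1. Each size was given to 100 clusters, with independent noise drawn from the fitted prior spread. The real arrays may hold another number of changed clusters and shifts along chromosomes, so these rates may not carry over. Named genes were the passing clusters, the 8 highest and 8 lowest differences among well-measured genes whose groups did not overlap, the 3 measured genes on each side of Slc24a4, and from each list the 3 members with the largest difference. Further list members and neighbours, such as Jdp2, Ahr, Id2, Batf, Nfkbia, Dnmt3a, Eif5, Slc8a3 and Nampt, were named outside these rules, with their values known. Other normalizations, filters, priors, bin sizes, a replicate block and leaving out each array were tried as alternatives. Members and lists were chosen with earlier results of these data known. Figures were drawn with matplotlib 3.10.9.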

Additional observations from a re-analysis of the deposited data

How the results depend on the processing

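The median of the well-measured chromosome 12 genes (-0.062) was negative in each of the settings run. It lay between -0.078 and -0.042 with 1 array left out, the latter without Mbd4 KO replicate 1, and was -0.017 over all genes, where dim genes enter. With quantile and cyclic loess normalization it was -0.054 and -0.067. The bins below 0 were 11 to 12 of 12 with 1 array left out, 14 of 22 over all genes, 6 of 6 in the upper quartile of level, 16 of 18 with bins of 20 genes and 7 of 7 with bins of 50. The 8 calls became 2 to 3 with 1 array left out, 44 with an intensity trend, 18 without the dimmest 30% of clusters and 17 at an adjusted p of 0.1. With all 35556 clusters of the table limma called 0 on chromosome 12 (90 at an unadjusted p under 0.05, against 112 of the clusters with 1 symbol). The prior had 2.37 degrees of freedom there, and Slc24a4 had an adjusted p of 0.065. With the replicate number as a block 6 calls remained, Klhdc2 (adjusted p = 0.0892) and Dhrs7 (0.0789) being lost. Arrays of the same number deviated together with a correlation of 0.083, so the numbers are not shown to pair them. Of 187 recomputed values of named genes, 0 changed sign.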

Other observations

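Outside the genes described, 35 clusters carry several symbols that all lie on chromosome 12. Of these, 17 were well measured, 14 of them lay below 0 in Mbd4 KO cells, and their median difference was -0.04 (log2).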
